A study of Homo sapiens with 4 samples.

Results

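RMRP and RPPH1, the RNA subunits of the ribonucleoproteins RNase MRP and RNase P, were examined in sequencing libraries of HEK293T cells. This line, which the labels describe as clonal, descends from HEK293 cells of the embryonic kidney. Both genes were found in the gene table by their GENCODE 44 symbols and are 2 of its 62700 genes. Their genotype was CMV-V5-MITO-PRADA, a V5-tagged PRADA construct for the mitochondrial matrix, driven by the CMV promoter and kept stably. PRADA is a proximity-labelling method that marks molecules near the construct. All 4 libraries came from cells that carried this construct and were given 100 µM 4-thiouridine (s4U), a uridine analogue built into new RNA, for 5 h, followed by 30 min in 0.5 mM alkyne phenol and s4U. In the 2 labelled libraries the reaction was then started with 10 mM D-amino acid (30 min), which the 2 unlabelled libraries lacked. Ribosomal RNA was depleted before library preparation in both groups. The series describes enriched material, so a difference between the groups is a difference in what was recovered with and without the D-amino acid, not a measurement of RNA inside and outside mitochondria. The labels call the libraries biological replicates but do not say that they came from separate cultures, so each p-value covers only the spread among these libraries, which may be technical.

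RNase P cuts the 5′ leader from precursor tRNAs, and in the nucleus its catalytic component is RPPH1, also called H1 RNA. RNase MRP is a related particle that cuts precursor ribosomal RNA in the nucleolus, and it was first purified as an activity that processes an RNA primer of mitochondrial DNA replication. Both RNAs are made by RNA polymerase III from nuclear genes, bind largely the same set of proteins, and have been proposed to enter mitochondria. Human mitochondria also hold an RNase P made of protein alone. The comparison of the 2 RNAs with mitochondrial mRNAs and with other small RNAs addresses where they stand among the RNAs recovered with this construct.

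The 2 RNAs are printed because the counting of each depends on its annotated interval, and because s4U can replace uridine, marked here by capital T in the DNA letters. The sequences are the GENCODE 29 transcripts of the same gene identifiers on GRCh38, which have the same coordinates in GENCODE 44.
RMRP: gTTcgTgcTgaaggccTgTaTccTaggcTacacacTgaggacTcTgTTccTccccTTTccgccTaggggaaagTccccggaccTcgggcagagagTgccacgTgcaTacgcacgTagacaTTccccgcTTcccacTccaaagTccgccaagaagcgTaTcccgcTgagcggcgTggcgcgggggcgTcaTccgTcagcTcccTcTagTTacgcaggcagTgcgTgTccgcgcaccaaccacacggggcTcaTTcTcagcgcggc
RPPH1, first 300 of its 333 bases: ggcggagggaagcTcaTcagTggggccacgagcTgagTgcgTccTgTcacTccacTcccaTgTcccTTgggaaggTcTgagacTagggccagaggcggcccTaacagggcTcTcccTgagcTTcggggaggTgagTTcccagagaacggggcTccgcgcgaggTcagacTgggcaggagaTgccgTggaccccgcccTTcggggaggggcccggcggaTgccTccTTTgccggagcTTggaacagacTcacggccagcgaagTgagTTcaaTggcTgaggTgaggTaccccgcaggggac
RMRP, ENSG00000277027.1, is a single exon of 264 bases on the minus strand at chr9:35657754-35658017. It has 50 uridines, 18.9% of its bases, and a GC content of 63.3%. RPPH1, ENSG00000277209.1, is a single exon of 333 bases on the minus strand at chr14:20343075-20343407. It has 56 uridines, 16.8% of its bases, and a GC content of 64.6%. Among the small RNAs used below, RN7SL1 of the signal recognition particle has 18.4% uridine, near that of RMRP, and the Cajal body RNA SCARNA7 has 33.3%. In the 13 mitochondrial mRNAs the share ran from 21.7% to 37.7%, with a median of 25.6%, so both subunits held less uridine than each of them. The part of uridine content in the differences below was not tested.

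RPPH1 could not be measured with these counts. Its value was 0 in all 4 libraries, and this follows from the annotation. The whole of its interval lies inside the exon of another record, ENSG00000259001.3, at chr14:20343048-20343685. The deposited counting, per the file header, left out fragments that fit more than 1 gene equally well. All 333 bases of RPPH1 are therefore shared, and no fragment that lies within it can be assigned to it. The record around it has 638 bases, of which 234 are its own, 27 just past the 3′ end of RPPH1 and 207 upstream of its 5′ end. It received 1 and 0 fragments in the unlabelled libraries and 0 and 2 in the labelled libraries. The counts of 0 say nothing of the amount of RPPH1, and no level, upper limit, fold change or ratio is given for it. The same was seen for most genes of this kind. Of the 62700 genes, 2633 have no base of their own, and 2551 of these, 96.9%, were at 0 in every library. The rest of them had at most 40 fragments each over the 4 libraries. Among the 60067 genes with bases of their own, 34.1% were at 0.

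**Figure D1:**
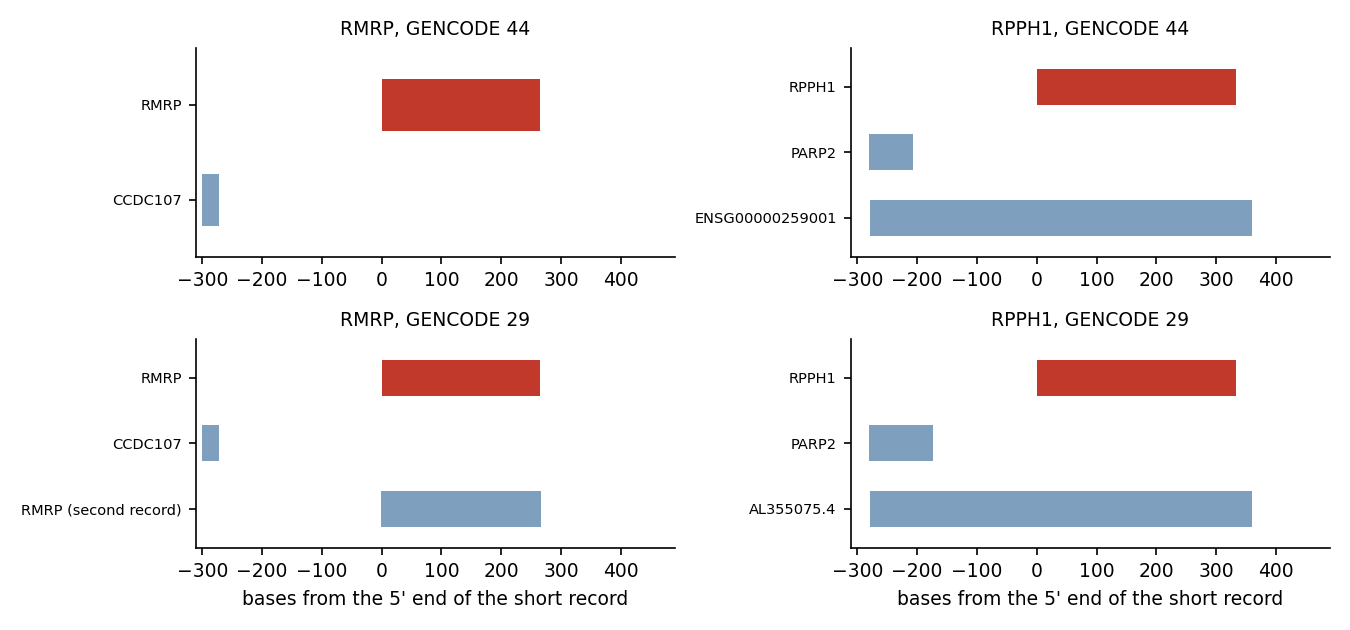
Annotated exons around the 5′ end of each RNA, with distance in bases along its strand on the horizontal axis, in GENCODE 44, used for the counts, and in GENCODE 29. In GENCODE 44 RMRP shares no base with another record, and RPPH1 lies wholly within another.

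RMRP is not touched by this limit: all 264 of its bases are its own. A search of the GENCODE 29 transcripts found 1 partial copy of RMRP, the pseudogene RMRPP5, with 70.6% identity over 269 aligned positions, and it was at 0 in all 4 libraries. The nearest pseudogene of RPPH1 was RPPH1-3P, with 77.9% identity over 289 positions. It and RPPH1-2P were at 0 as well. No fragments were thus counted for these copies, but fragments that fit a copy and its parent equally well would have been left out. The counting did not use strand, so antisense RNA at the RMRP locus cannot be told apart from RMRP.

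The libraries held 5771795 to 12287451 assigned fragments, with the fewest in unlabelled replicate 2. A further 9.92% to 14.7% as many records were left out as ambiguous. Multi-mapping records, of which 1 fragment can have several, were also left out, and they numbered 22599823 and 7158307 without labelling and 6059635 and 15992331 with it. They were uneven within both groups, and what they hold was not tested. All 6 markers of HEK293-derived cells were found, with summed levels of 220 to 273 CPM. Most of this sum came from VIM, at 179 to 216 CPM. The blood and endothelial markers summed to at most 0.151 and 0.192 CPM, with HBB and CD3E at 0. The fibroblast markers COL1A1 and COL3A1 summed to 20.7 and 12.4 CPM without labelling and 20.9 and 20.8 CPM with it, nearly all from COL1A1, and their part in the results was not tested. CPM stands here for counts per 1000000 fragments of a library after scaling by the trimmed mean of M-values (TMM). Of 18973 genes tested with edgeR's quasi-likelihood test, 54 passed an adjusted p of 0.05, 51 higher and 3 lower in the labelled libraries. With scaling to library size alone, 69 were higher and 2675 lower, and the median over all tested genes moved from -0.01 to -0.37 on the log2 scale. Changes are therefore given relative to the TMM scaling, and ratios within a library are given beside them.

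RMRP was one of the most abundant transcripts in every library and was lower after labelling. The unlabelled libraries held 21348 and 15636 RMRP fragments, and the labelled libraries held 8033 and 13296. As a share of assigned fragments RMRP made up 0.261% (95% Wilson interval 0.258 to 0.265) in unlabelled replicate 1 and 0.271% (0.267 to 0.275) in unlabelled replicate 2. In the labelled libraries it made up 0.0856% (0.0838 to 0.0875) and 0.108% (0.106 to 0.110). Both labelled libraries lay well below both unlabelled libraries, and the counting intervals, which cover counting error only, did not touch between the groups. This was 1 fragment in 383 and 369 without the D-amino acid, and 1 in 1168 and 924 with it. The mean share was 0.266% ± 0.00685 (SD, n = 2) in the unlabelled and 0.0969% ± 0.0160 (SD, n = 2) in the labelled libraries, a 2.75-fold difference. A two-sided exact permutation test gave p = 0.333, the smallest that 2 libraries against 2 allow.

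After TMM scaling, which compares each gene with the bulk of genes, the difference was smaller. RMRP stood at 2377 and 2359 CPM in the unlabelled libraries and at 937 and 1279 CPM in the labelled libraries. The unlabelled pair differed little, with a mean of 2368 ± 12.9 CPM (SD, n = 2), while the labelled pair was spread more widely around 1108 ± 242 CPM (SD, n = 2). The fitted level was 2.14-fold lower in the labelled libraries, a log2 fold change of -1.10 ± 0.22 (SE) with an adjusted p of 0.0936 by edgeR's quasi-likelihood test. This missed the threshold of 0.05. Of all tested genes, 0.0158% were called lower by that test, while in 22.4% both labelled libraries lay below both unlabelled libraries, as they did for RMRP. DESeq2 called RMRP lower, with a log2 fold change of -1.07 ± 0.17 (SE) and an adjusted p of 2.32e-07, in a test that called 0.061% of genes lower. In these bulk libraries less RMRP per cell, a different mix of cells and a smaller recovered part of the RMRP cannot be told apart.

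**Figure D2:**
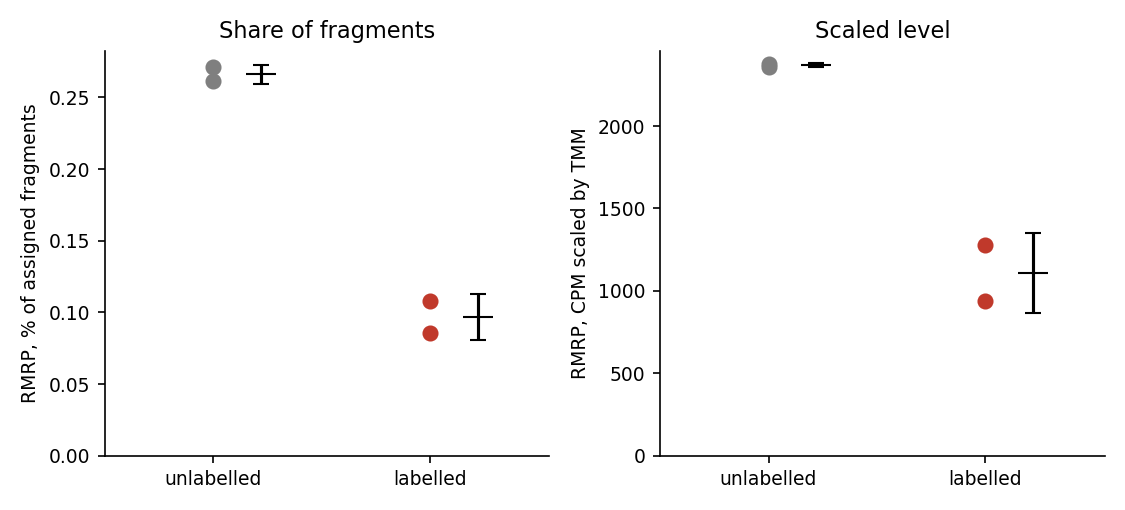
RMRP in each library, as a percentage of assigned fragments and as TMM-scaled CPM, with the mean and SD of each group. The labelled points lie below the unlabelled points on both scales, at 0.0856% and 0.108% against 0.261% and 0.271%.

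The call rested on the scaling, the filter and single libraries, while the direction did not. Library size alone gave a log2 fold change of -1.46 with an edgeR adjusted p of 0.00130, and that value was -1.09 relative to the median of all genes. With a block for the replicate number the edgeR adjusted p was 0.0209, and without the filter on low counts it was 1.56e-08. Genes called lower numbered 2675 of 18973 with library size alone, 96 of 18973 with the block and 119 of 39689 without the filter. The main fit called 3 of 18973 lower. Leaving out unlabelled replicate 1 or 2 gave log2 fold changes of -1.06 and -1.10. Leaving out labelled replicate 1 gave -0.87 ± 0.39 (SE), and leaving out labelled replicate 2 gave -1.33 ± 0.41 (SE). Whether RMRP passed also depended on the library left out. When 1 library is left out, the lone library of its group is assumed to vary like the others. The labelled pair differed more in RMRP than the unlabelled pair did.

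**Figure D3:**
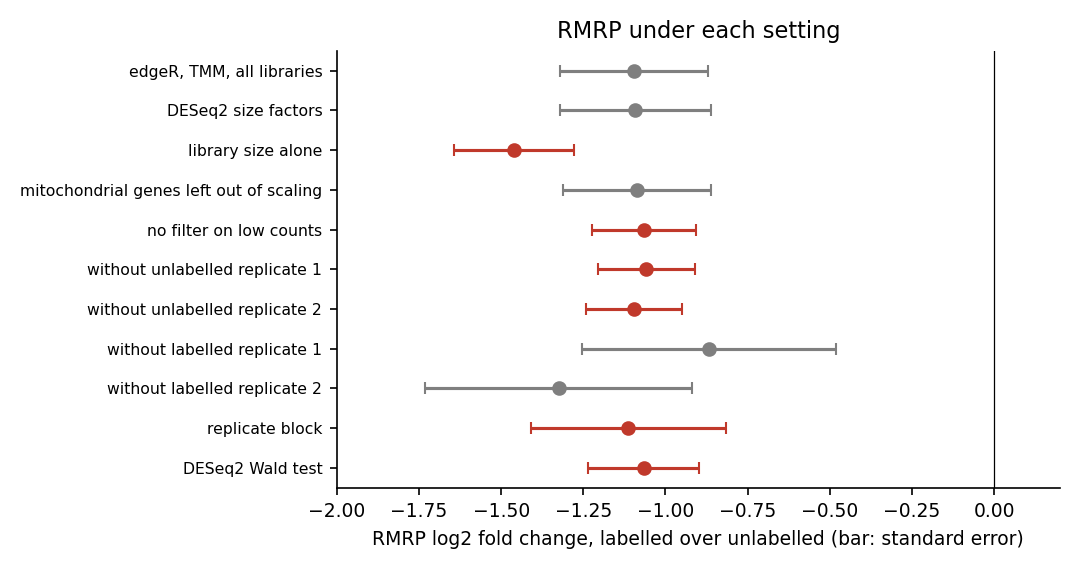
Log2 fold change of RMRP (labelled minus unlabelled) under each processing choice, with bars of 1 standard error, coloured by whether the adjusted p was under 0.05. All values lie between -1.46 and -0.87.

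The size of the RMRP difference can be set against other genes at its level. By number of fragments RMRP was gene 18 and gene 19 of the table in the unlabelled libraries and gene 46 and gene 34 in the labelled ones. Per length, as RPKM (TMM CPM divided by the gene's length in kilobases), RMRP stood at 9005 and 8936 in the unlabelled libraries and at 3548 and 4845 in the labelled libraries, which placed it 6th, 8th, 17th and 19th. For comparison, the level of MT-CO1, a subunit of cytochrome c oxidase, was 10245 and 11243 RPKM without labelling and 45586 and 51675 RPKM with it. RMRP and MT-CO1 were thus near each other per length without labelling and far apart with it. Across all tested genes 291 had a lower log2 fold change than RMRP, all of them with a mean under 100 CPM. Among the 1814 genes with a mean of at least 100 CPM, a limit chosen after the values were seen, 0 had a lower one, and the next was RPL39, a protein of the large ribosomal subunit, at -0.84. That place was not stable, since RMRP was 6th from the lowest without unlabelled replicate 1 and 3rd without labelled replicate 1.

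**Figure D4:**
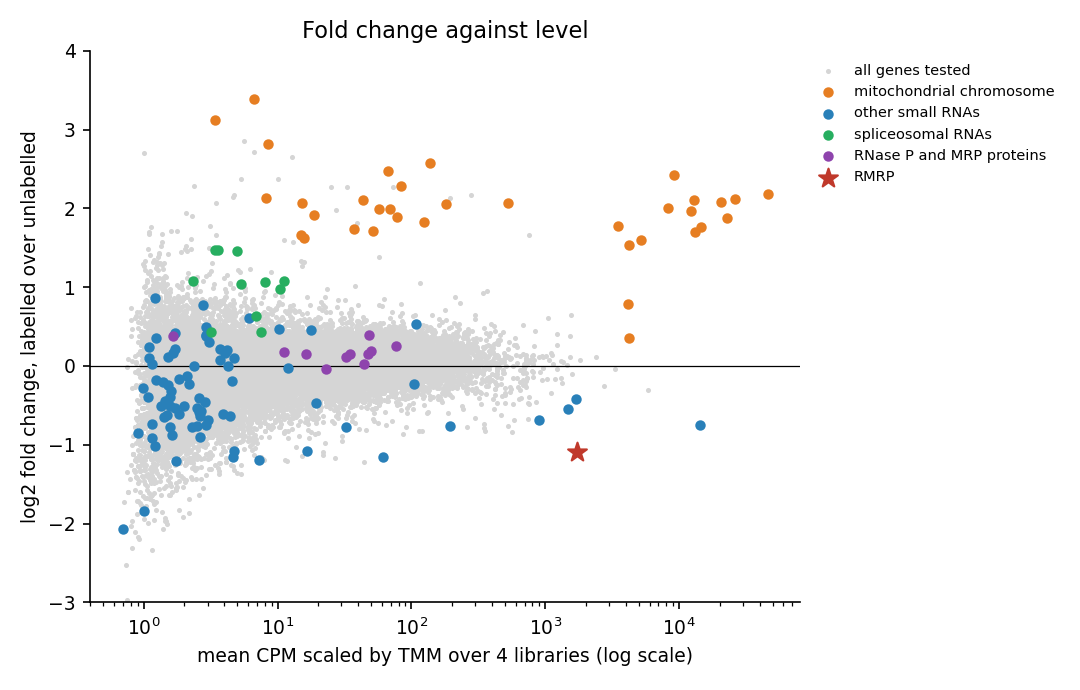
Log2 fold change (labelled minus unlabelled) against mean CPM on a log axis for the tested genes, with RMRP, mitochondrial genes, spliceosomal RNAs and other small RNAs coloured. RMRP, at -1.10, lies at the lower edge of the genes of its level, and the mitochondrial genes lie above 0.

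Mitochondrial mRNAs lay on the other side of 0. Their log2 fold changes were positive in 13 of 13, with the median at 1.96 (0.36 to 2.42), beside -0.01 over all genes tested. Of the 13, 4 passed the test as higher and 0 as lower, where 0.269% of all genes were called higher, and DESeq2 called 11 higher (0.325% of all genes). They took 8.30% and 10.1% of assigned fragments in the unlabelled libraries and 26.3% and 28.8% in the labelled libraries. MT-ND1, a subunit of complex I, rose the most, by 2.42 in log2 units with an edgeR adjusted p of 0.00725. The smallest value was that of MT-ATP8, a subunit of ATP synthase whose gene overlaps MT-ATP6, at 0.36 (edgeR adjusted p = 0.697). Of the 20 mitochondrial tRNAs tested, which include the substrates of mitochondrial RNase P, 20 had positive values, 19 passed edgeR's test as higher and 14 DESeq2's, and the median was 2.06. MT-TW, the tRNA for tryptophan, rose by 3.38 in log2 units, and edgeR gave it an adjusted p of 2.80e-04. It had only 9 and 9 fragments without labelling, and 103 and 129 with it.

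The ratio of RMRP to mitochondrial mRNA within a library does not depend on scaling between libraries. Per 1000 fragments of the 13 mitochondrial mRNAs there were 31.5 and 26.8 RMRP fragments in the unlabelled libraries and 3.25 and 3.75 in the labelled libraries. The labelled ratios were far below the unlabelled ones and close to each other. The mean log2 ratio was -5.11 ± 0.16 (SD, n = 2) without labelling and -8.16 ± 0.15 (SD, n = 2) with it. The difference was -3.06, or 8.32-fold (two-sided exact permutation p = 0.333, the smallest possible). Taken against each mRNA alone, RMRP was lower in both labelled libraries than in both unlabelled libraries for 13 of 13, by 1.54 (MT-ATP8) to 3.53 (MT-ND1) on the log2 scale. With any 1 library left out, these differences kept their sign for all 13, and that for MT-ATP8 ran from -2.02 to -1.05. In 12 of the 13 mRNAs both labelled CPM lay above both unlabelled CPM, as in 22.2% of all genes. A gene with the same CPM in every library would thus also be lower against those 12. RMRP was also lower against the ribosomal RNAs MT-RNR1 and MT-RNR2, with log2 differences of -2.83 and -2.54. These were less even: the log2 ratio to MT-RNR2 was -0.73 and 0.96 without labelling and -1.51 and -3.34 with it. Without labelled replicate 2 the differences were -2.15 and -1.62, and without unlabelled replicate 2 they were -2.05 and -1.70. Ribosomal RNA was depleted from all 4 libraries, which also bears on these 2. Both terms of the ratio to mRNA moved: on the TMM scale RMRP was lower by 1.10 and the median mitochondrial mRNA higher by 1.96 in log2 units.

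Against other nuclear small RNAs the RMRP ratio moved less, and the groups overlapped. The list comprised 595 annotated RNAs of the signal recognition particle, 7SK, Y, vault, telomerase, BC200, 5S rRNA, spliceosomal, small nucleolar and Cajal body classes. Of these, 91 were tested, 359 were at 0 in every library, and 201 had no base of their own, all of which were among those at 0. Of the 91, 0 passed edgeR's test in either direction (0.285% of all genes did), 23 had an unadjusted p under 0.05 (11.5% of all genes did), and DESeq2 called 0. Their median log2 fold change was -0.27 (-2.07 to 1.47), with 35 positive and 56 negative values, beside -1.10 for RMRP. Some were as low as RMRP, among them the Cajal body RNAs SCARNA6 and SCARNA5, at -1.19 and -1.08. The lowest, SNORD18, had only 11 and 7 fragments without labelling and 1 and 4 with it. Per 1000 fragments of the list there were 138 and 78.3 RMRP fragments in the unlabelled libraries and 67.5 and 81.4 in the labelled libraries. Unlabelled replicate 1 lay above the other 3 libraries, and unlabelled replicate 2 lay between the labelled ones. The log2 ratio differed by -0.49, or 1.40-fold (two-sided exact permutation p = 0.667), and by -0.90 to -0.08 when 1 library was left out.

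The small RNAs differed among themselves in this ratio, so the sum hides unlike members. Against each of the 10 with the highest mean CPM, RMRP was on average lower in the labelled libraries, but its labelled and unlabelled values were apart for only 5 of these 10. These 5 were SNORD3A and SNORD3B-2, copies of the U3 RNA that guides early cleavage of precursor rRNA, SCARNA7, RN7SL3 and BCYRN1, with log2 differences of -0.80, -1.64, -0.89, -0.60 and -0.63 in that order. U3 and signal recognition particle RNAs have near-identical gene copies, and fragments that fit several of them were left out of the counts, so their values are uncertain singly and summed. Without unlabelled replicate 1 these 5 differences shrank to -0.23, -1.39, -0.63, -0.31 and -0.23, and those for SNORD3B-1 and SNORD3C turned positive, at 0.10 and 0.21. RN7SL1, the most abundant of the list, stood at 13202 and 22597 CPM without labelling and at 9996 and 11323 CPM with it. Its log2 fold change was -0.75 ± 0.39 (SE, edgeR adjusted p = 0.481), and it was highest in unlabelled replicate 2, the library with the lower of the 2 unlabelled ratios. Without the RN7SL genes the RMRP ratio differed by -0.76 on the log2 scale and the groups did not overlap (two-sided exact permutation p = 0.333). SNORD17, a small nucleolar RNA, stood at -1.15 on the log2 scale, close to RMRP, with an edgeR adjusted p of 0.136, but the log2 ratio of RMRP to it was spread widely, at 5.47 and 4.35 without labelling and 4.61 and 5.10 with it. The mean difference of -0.05 became 0.50 without unlabelled replicate 1 and -0.61 without unlabelled replicate 2.

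**Figure D5:**
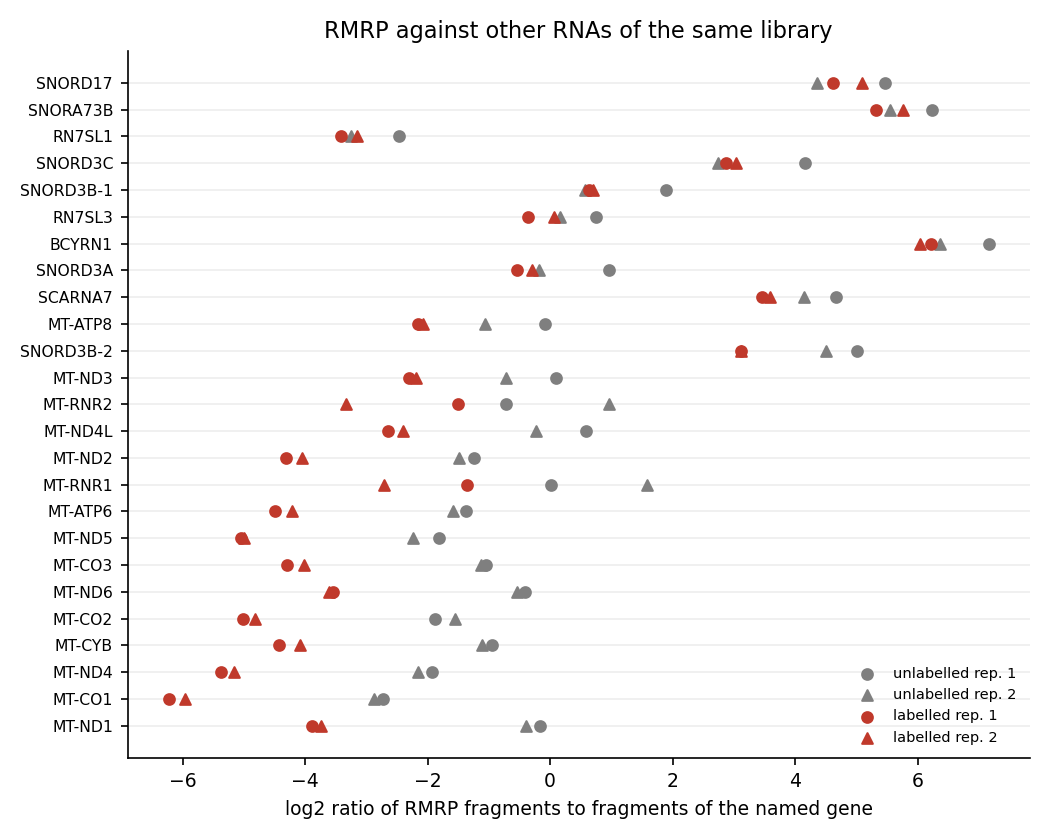
Log2 ratio of RMRP fragments to those of each gene within a library, for the 13 mitochondrial mRNAs, both mitochondrial rRNAs and the 10 most abundant other small RNAs, with each library as a point. Labelled points lie below unlabelled points for every mitochondrial gene and overlap them for 5 of the 10 small RNAs.

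The classes of small RNA had medians on both sides of 0. The 76 tested small nucleolar and Cajal body RNAs had a median log2 fold change of -0.40. The 11 tested spliceosomal RNAs, which work in the nucleus, had 11 positive values with a median of 1.07 (0.43 to 1.47), and in 10 both labelled libraries lay above both unlabelled libraries, as in 22.2% of all genes. Their edgeR adjusted p ran from 0.0936 to 0.661 and 0 passed. The 11 together were counted far below RMRP. Their summed levels were 43.1 and 47.7 CPM without labelling and 78.2 and 97.8 CPM with it. The list holds several gene copies of the same RNA, and fragments that fit several genes were left out. These levels thus need not show how abundant the RNAs were, and the part of the lost fragments in their differences was not tested. Short length was shared with many genes on both sides of 0. Of 585 tested nuclear genes of at most 400 bases, 36 had a lower log2 fold change than RMRP, and the median of the class was -0.21. The class includes RMRP itself. Of these genes edgeR called 1 lower (0.0158% of all genes) and 0 higher (0.269%). DESeq2 called 2 lower (0.061% of all genes), RMRP and the RPL39 pseudogene RPL39P3, and 0 higher (0.325%). In the same length class 23 mitochondrial genes were tested, and edgeR called 19 higher and DESeq2 15, with a median of 1.99.

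The mRNAs of the protein subunits had small log2 fold changes, mostly above 0. RNase P and RNase MRP share most of these proteins, among them POP1, the large scaffold, and RPP38, RPP30 and POP4. All 11 listed proteins were measured and tested, with 0 called by edgeR in either direction (0.285% of all genes were) and 0 by DESeq2 (0.386%). At an unadjusted p under 0.05 there was 1 of the 11, near the 11.5% of all genes. Their median log2 fold change was 0.16, from -0.03 (POP5) to 0.40 (RPP25, unadjusted p = 0.0311), and 10 of the 11 were positive. POP1 had a log2 fold change of 0.16 and RPP30 of 0.25, with edgeR adjusted p from 0.396 to 0.963 over the 11. RPP21, at 0.38 ± 0.57 (SE), had only 18 and 5 fragments without labelling and 24 and 11 with it. These are mRNAs, so the values bear on recovery of the transcripts and not on the proteins. With library size alone the median was -0.20, so the sign of this group depends on the scaling.

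The mRNAs of the protein-only mitochondrial RNase P and of related tRNA processing were also close to 0. TRMT10C and HSD17B10, its methyltransferase and dehydrogenase subunits, had log2 fold changes of 0.17 and 0.02, and PRORP, its nuclease, had -0.10. ELAC2, which cuts the 3′ ends of tRNAs, had 0.05, and TRNT1, which adds CCA to tRNAs, had -0.00. None of these 5 passed, with edgeR adjusted p from 0.628 to 0.999. PNPT1, which has been proposed to import RMRP and RPPH1, had 0.01, its partner SUPV3L1 had 0.21, and the RNA-binding proteins ELAVL1 and GRSF1, proposed to export and retain RMRP, had -0.07 and 0.06. None of these 4 passed either, with edgeR adjusted p from 0.543 to 0.990. The gene next to RMRP, CCDC107, had 17 and 12 fragments without labelling and 14 and 19 with it, with a log2 fold change of -0.10. PARP2, a poly(ADP-ribose) polymerase gene beside RPPH1, had 190 and 132 without and 187 and 242 with labelling, with a log2 fold change of 0.13. Neither neighbour passed the test, and CCDC107 was far below RMRP in every library.

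The genes whose pattern over the 4 libraries was nearest to that of RMRP were sought among 10661 genes with a mean of at least 10 CPM, by the root mean square difference of log2 CPM centred on each gene's mean. The pattern of RMRP was 0.56 and 0.55 without labelling and -0.78 and -0.33 with it. The nearest was RPL39, with a difference of 0.150, a log2 fold change of -0.84 and an edgeR adjusted p of 0.0809. RPL38 followed with 0.172, RPL39P3 with 0.174, RPL37A with 0.218 and RPS28 with 0.221. RPL38, RPL37A and RPS28 encode ribosomal proteins, and RPL39P3 is a pseudogene of RPL39 whose reads are hard to tell from its parent's. These 5 were chosen for a pattern that is lower with labelling, so their lower values follow from the choice and are no separate result. By edgeR only RPL39P3 of the 5 passed (0.0158% of all genes were called lower), at -0.96 on the log2 scale with an adjusted p of 0.0101. DESeq2 called all of them lower except RPS28 (0.061% of all genes were). Its adjusted p were 5.29e-05 for RPL39, 0.0129 for RPL38, 0.0164 for RPL39P3 and 0.0261 for RPL37A, beside 0.0762 for RPS28. None of the 5 reached the size of the RMRP difference, and 4 libraries give few points from which to judge likeness.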

How the data were processed

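The authors' deposited table holds raw fragment counts per gene for 4 libraries, whole numbers and not normalized. Per the file headers these counts were made with featureCounts 1.6.4 on GENCODE 44, over exons summed by gene, for pairs with both ends mapped and without chimeric pairs. No option for strand, multi-mapping reads or overlapping genes was set, so a fragment that fits 2 genes equally well stayed unassigned. Per the submitters' processing notes, STAR 2.7.9a and GRCh38 were used, and DESeq2 1.42.0. Whether duplicates were removed was not given in the sources used here. The authors' table of assignment status counts alignment records.

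The members and gene lists were chosen with earlier results of these data known. Groups and replicate numbers came from the sample titles. Counts were filtered with filterByExpr, scaled by TMM and tested in R 4.3.3 with edgeR 4.0.16 (quasi-likelihood, 18973 genes, Benjamini-Hochberg adjustment over all of them, threshold 0.05), with DESeq2 1.42.0 as an alternative. Other alternatives were DESeq2 size factors, library size alone, mitochondrial genes left out of the scaling, no filter, a replicate block, and each library left out. Shares were given Wilson intervals at 95% with SciPy 1.17.1. Ratios within a library were compared by exact permutation over 6 arrangements. A base of a gene was called its own if no exon of another gene covers it. Near copies were sought with BLAST 2.17.0 at an e-value of 1e-05. A count of 3 fragments corresponded to 0.244 to 0.520 CPM of assigned fragments. Genes named were the members, their protein subunits, related processing and import factors, pseudogenes and neighbours, the 10 most abundant other small RNAs, the extreme mitochondrial mRNAs and tRNAs, and the 5 nearest patterns. On simulated counts the edgeR test recovered 73.5% of genes changed by 1 and 93% of those changed by 2 on the log2 scale, among 19125 genes. It also called 5 unchanged genes. The simulation changed as many genes up as down and held no shift like that of the mitochondrial mRNAs. Recovery in the real libraries may therefore differ. All 62700 identifiers were matched to names, some of which only repeat the identifier.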

Additional observations from a re-analysis of the deposited data

How the results depend on the processing

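The direction of RMRP was the same under all 10 alternatives, with log2 fold changes of -1.46 (library size alone), -1.07 (no filter on low counts), -1.11 (replicate block), -1.07 (DESeq2), -1.09 (DESeq2 size factors), -1.09 (mitochondrial genes left out of the scaling) and -1.33 to -0.87 with each library left out in turn. It passed the threshold in the first 4 of these and without either unlabelled library, where that group rests on 1 library. The genes past the threshold numbered 54, against 2744 with library size alone, 302 with no filter, 236 with the replicate block, and 58 to 3985 with a library left out, the highest without unlabelled replicate 1. The cause was not tested. With library size alone the median log2 fold change was 1.60 for mitochondrial mRNAs, -0.63 for other small RNAs and -0.20 for the RNase P and MRP proteins, which reversed the sign of the last, since that scaling lowers all genes. With a library left out these medians ran from 1.74 to 2.08, from -0.48 to -0.039 and from 0.025 to 0.36. The RMRP ratio to mitochondrial mRNAs ran from -3.17 to -2.94 and was -3.04 against all 37 mitochondrial genes. In ratios to single RNAs, leaving out each library was added after seeing the data, and 3 differences changed sign: that for SNORD3B-1 ran from -1.22 to 0.10, for SNORD3C from -1.22 to 0.21 and for SNORD17 from -0.61 to 0.50.

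Same-numbered libraries deviated from their group means with a correlation of -0.0698 over 18973 genes. With 2 libraries a group this cannot show whether the replicate numbers pair the libraries. With 2 pairs the block is a check only. The planned values for RPPH1 and its ratios could not be computed, because its counts are 0 by the way genes overlap in the annotation. With 2 libraries a group no exact test can pass 0.05, and low counts limit RPP21 and the spliceosomal RNAs more than RMRP.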

Other observations

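The bases that a small RNA does not share with another record depended on the annotation release. In GENCODE 44, used for the deposited counts, RMRP keeps all 264 of its bases, whereas in GENCODE 29 a second RMRP record, ENSG00000269900.3, covers it and leaves it 0 bases of its own. RPPH1 has 0 bases of its own in both releases. RN7SL1 has 299 own bases in GENCODE 44 and 0 in GENCODE 29, while RN7SL2, the other main signal recognition particle gene, has 0 in GENCODE 44 and 300 in GENCODE 29. RN7SL3 has 299 in both. RN7SL2 was at 0 in all 4 libraries, beside at least 9996 CPM of RN7SL1 in each. RN7SK, the RNA that holds the elongation factor P-TEFb inactive, has 0 own bases in both releases and was at 0 in all 4 libraries. TERC, the telomerase RNA, keeps 103 of its 541 bases in both and received 4 and 2 fragments without labelling and 2 and 2 with it. Having bases of its own did not by itself give a gene counts: RNU2-1, the U2 RNA of the spliceosome, has 191 own bases in both releases, and each of 4 copies of 5S rRNA has 119 in GENCODE 44, yet all 5 were at 0 in all 4 libraries. No counts were made here with GENCODE 29. A recount of the reads with overlapping records merged, or with fragments allowed in more than 1 gene, would be needed to place RPPH1 beside RMRP.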
